A study of Mus musculus with 180 samples.

Results

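The inflammasome genes described here are the 7 genes Nlrp3, Nlrc4, Aim2, Pycard, Casp1, Casp4 and Gsdmd, taken by their symbols from the 45070 genes of the deposited table. They were followed across 58 clinical kinase inhibitors (CKIs) and the vehicle DMSO in mouse bone marrow-derived macrophages (BMDM), the macrophages that grow from bone marrow cells in culture. All cells were wild type and came from young male C57/BL6 mice. They received DMSO or 1 CKI for 1 h and then 10 ng/ml of the bacterial lipopolysaccharide LPS for 2 h, so that every sample, controls included, was stimulated and no unstimulated level is part of the comparison. Polyadenylated RNA of 180 samples was sequenced, 3 for each CKI and 6 for DMSO, the latter in 2 sets of 3 that the labels do not tie to particular CKIs. Each CKI was used at a concentration set by its own affinity for the kinase it was meant to reach, so concentrations differ between CKIs and a difference between 2 CKIs is not one at matched dose.

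Inflammasomes are protein platforms that assemble in the cytosol of macrophages after infection or damage. A sensor (Nlrp3, which responds to many membrane and ion disturbances; Nlrc4, which works with Naip proteins that bind bacterial flagellin and secretion systems; Aim2, which binds cytosolic DNA) recruits the adaptor ASC, encoded by Pycard (Nlrc4 can also do without it), and this brings together the protease caspase-1, encoded by Casp1. Caspase-1 matures the cytokines interleukin-1β and interleukin-18 and cuts gasdermin D, encoded by Gsdmd, whose fragment forms pores in the plasma membrane. Casp4, known in mouse also as caspase-11, binds LPS that has reached the cytosol and cuts gasdermin D by itself. LPS is widely used to prime this machinery, above all by raising Nlrp3 and the interleukin-1β precursor, before a later trigger activates it. The transcript levels reported here say nothing about assembly or cleavage.

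Casp1 and Casp4 are neighbours on chromosome 9 (mm10, + strand), Casp1 from 5298517 to 5307281 and Casp4 from 5308849 to 5336791. Nlrp3 lies on chromosome 11 from 59541569 to 59566955 (+), Aim2 on chromosome 1 from 173420604 to 173466040 (+), Nlrc4 on chromosome 17 from 74426295 to 74459108 (-), Pycard on chromosome 7 from 127991373 to 127993867 (-) and Gsdmd on chromosome 15 from 75862339 to 75867404 (+). The span of Nlrc4, introns included, shares 510 bases with that of Gm4708, a gene model on the same strand with a mean normalized value of 103. Whether exons of both lie in that stretch, where reads could not be told apart, was not checked. The 250 bases before the start site were read from RefSeq (GRCm38.p6, the same sequence as mm10) for 6 of the 7 genes. The windows of Casp4, Nlrp3, Casp1 and Aim2 are shown because the first pair holds matches to a motif of NF-κB, a factor that LPS activates, and because the group means of Aim2, Casp1 and Casp4 rose and fell together across CKIs. Lower case is the window, 5′ to 3′ on the gene's strand, and capitals mark a match to GGNNTTTCC on either strand.

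Casp4, chr9:5308599-5308848 (+): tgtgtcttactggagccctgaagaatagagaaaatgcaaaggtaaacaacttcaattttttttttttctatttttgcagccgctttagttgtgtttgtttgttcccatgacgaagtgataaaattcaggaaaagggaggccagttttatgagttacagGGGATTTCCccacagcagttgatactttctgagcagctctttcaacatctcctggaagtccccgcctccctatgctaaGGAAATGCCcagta
Nlrp3, chr11:59541319-59541568 (+): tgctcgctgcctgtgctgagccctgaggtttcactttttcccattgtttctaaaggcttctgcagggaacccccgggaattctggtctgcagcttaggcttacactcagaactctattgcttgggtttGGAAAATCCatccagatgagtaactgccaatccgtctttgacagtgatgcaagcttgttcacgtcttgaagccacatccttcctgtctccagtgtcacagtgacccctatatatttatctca
Casp1, chr9:5298267-5298516 (+): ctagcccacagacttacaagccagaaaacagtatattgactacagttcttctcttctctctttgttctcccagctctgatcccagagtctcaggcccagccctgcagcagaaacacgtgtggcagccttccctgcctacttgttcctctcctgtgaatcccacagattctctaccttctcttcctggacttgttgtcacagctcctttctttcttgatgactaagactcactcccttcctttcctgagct
Aim2, chr1:173420354-173420603 (+): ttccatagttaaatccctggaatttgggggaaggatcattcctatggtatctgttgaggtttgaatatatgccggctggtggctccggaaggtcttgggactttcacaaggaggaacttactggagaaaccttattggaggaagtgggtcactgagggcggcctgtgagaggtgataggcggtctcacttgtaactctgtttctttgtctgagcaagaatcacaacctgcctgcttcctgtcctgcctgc

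The Casp4 window held matches that begin 92 and 14 bases before its start site, and the Nlrp3 window 1 that begins 122 bases before it. A second start site of Nlrp3 had a match 94 bases upstream. Windows of Casp1, Aim2, Nlrc4 and Pycard held none, which says only that these letters are not in them. Of 32851 mouse promoter windows of this length, 4.93% held the motif. In none of the 6 genes was there a match to the other motifs searched on both strands, which were GAAANNGAA (ISRE, bound by interferon-activated factors and found in 7.13% of windows), TTCNNNGAA (GAS, 7.02%), TGANTCA (AP-1, 6.75%) and TGACGTCA (CRE, 1.55%).

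Values are read counts on exons that the authors scaled and rounded, called normalized values here, and the totals of the samples lay between 9477340 and 12273349. All 7 genes passed the filter of a mean of at least 10 that left 12714 genes to test. The cells carried the macrophage markers fixed for this purpose (all 8 of 8 passed the filter, with Csf1r between 21875 and 29924, Cd68 between 3044 and 17023 and Lyz2 between 34266 and 150355 over all samples), while none of the 5 T and B cell markers and none of the 3 mast cell and basophil markers passed it. Of 6 neutrophil markers 5 passed, with S100a8 between 73 and 798 and S100a9 between 45 and 579, while Ly6g stayed between 0 and 5. The sum of the neutrophil markers ran from 192 to 561 in DMSO and from 138 to 1516 with CKIs. Of 4 dendritic cell markers 1 passed (Xcr1, 25 to 152), and of 4 fibroblast markers 1 (Col1a1, 2 to 146). Their part in the results was not tested. The share of mitochondrially encoded transcripts, a sign of RNA quality or of cell state, ranged from 0.759% to 1.95% in DMSO and from 0.525% to 4.47% with CKIs. In bulk samples fewer expressing cells and less RNA per cell cannot be told apart.

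In DMSO the adaptor and the pore former stood highest per length of transcript, and the sensors Aim2 and Nlrc4 lowest. Per kb of gene model the mean normalized value (± SD, n = 6) was 947 ± 48.3 for Pycard, 564 ± 66.4 for Gsdmd, 332 ± 167 for Casp4, 231 ± 106 for Casp1, 193 ± 51.5 for Nlrp3, 68.9 ± 18.8 for Aim2 and 13.1 ± 5.01 for Nlrc4. The SDs of the neighbours Casp4, Casp1 and Nlrp3 in this order overlap, so their order among themselves is not set by these samples. Pycard and Gsdmd were also the steadiest, with a coefficient of variation of 5.11% and 11.8% in DMSO, against 50.3% for Casp4 and 45.7% for Casp1.

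Single DMSO samples of the 2 inflammatory caspases lay far apart. In the 3 samples of set 1 the normalized value of Casp4 was 619, 443 and 312, and in set 2 it was 910, 330 and 283. Casp1 had 367, 368 and 248 in set 1 and 649, 222 and 245 in set 2. For both genes replicate 1 of set 2 was the highest of the 6, and the standard error of a CKI's log2 fold change was 0.42 for Casp1 and 0.37 for Casp4, against 0.10 for Pycard and 0.12 for Gsdmd. Between the 2 DMSO sets limma called 0 of 12714 genes after Benjamini-Hochberg adjustment (310 at an unadjusted p under 0.05), and the largest difference of a member was 0.16 on the log2 scale, for Nlrp3.

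Each CKI was then compared with DMSO, which asks with which inhibitors the level of these genes under LPS differs. Of 406 pairs of a member and a CKI, 14 passed an adjusted p of 0.05 in limma without the replicate number in the model. Of these, 10 were higher and 4 lower than DMSO, and all 14 fell on 5 CKIs. These were BGT226 and Omipalisib (both developed against PI3K and mTOR), Lapatinib (EGFR and HER2), Pimasertib (MEK) and Filgotinib (JAK1). The study chose some CKIs for a kinase other than the one they are best known for, so these classes are background. The share called, 3.45%, lay near that over all genes and CKIs, where 2.52% of pairs were called higher and 1.65% lower, so that the members as a list were not called more often than other genes. At an unadjusted p under 0.05 there were 55 pairs. With the replicate number in the model 29 pairs on 14 CKIs passed, all 14 pairs above among them. Pairs described below as not passing are those of the fit without it. Single genes were called with a median of 2 CKIs, and Casp4, with 5, was called with more CKIs than 82.5% of genes, while Nlrc4, Aim2 and Gsdmd had 1 CKI each.

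**Figure D1:**
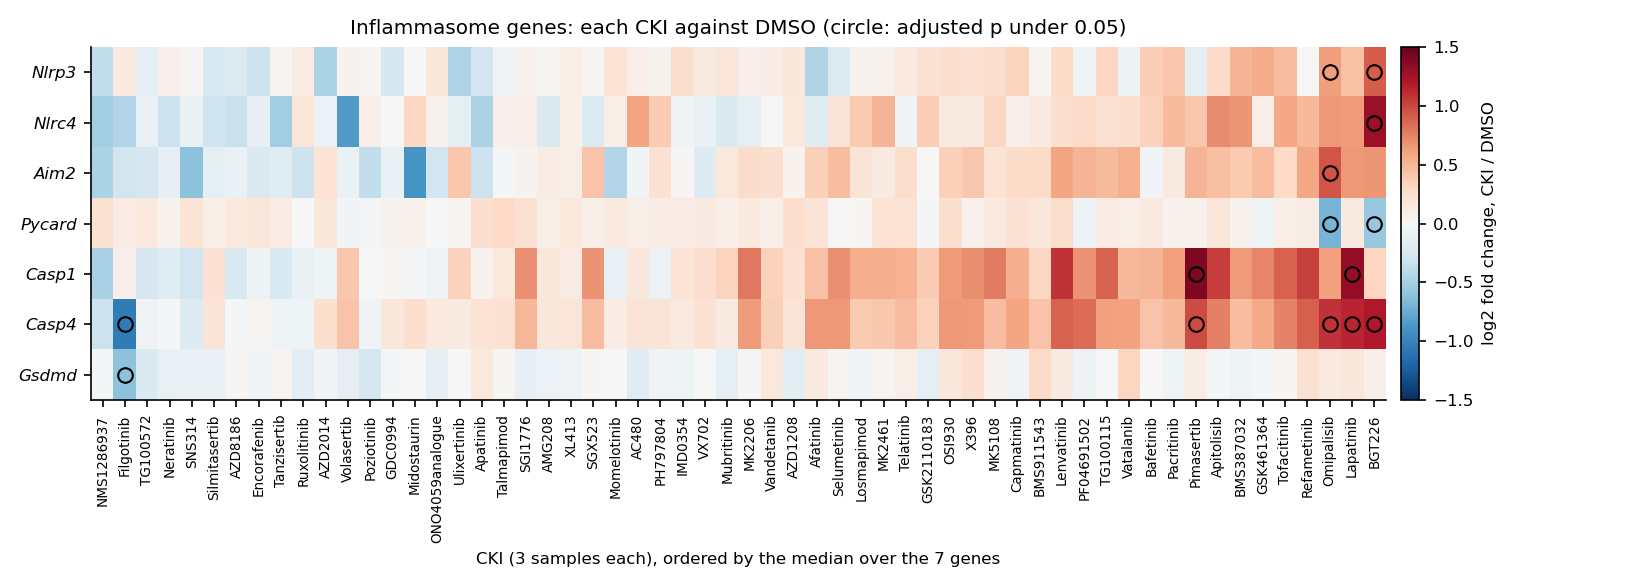
Log2 fold change of the 7 genes (rows) against DMSO for 58 CKIs (columns, 3 samples each, ordered by the median over the genes), with circles at an adjusted p under 0.05. The 14 circles sit on 5 CKIs, Filgotinib near the left end and Pimasertib, Omipalisib, Lapatinib and BGT226 towards the right, and the Pycard row is clearly blue at Omipalisib (-0.69) and BGT226 (-0.57).

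These 5 CKIs changed many genes. BGT226 called 24.1% of all genes higher and 6.32% lower, Omipalisib 17.5% and 8.16%, Lapatinib 18.1% and 5.26%, Pimasertib 16.0% and 5.68%, and Filgotinib 6.1% and 14.6%. Against these shares, 3 members higher and 1 lower with BGT226, the same counts with Omipalisib, 2 higher with each of Lapatinib and Pimasertib and 2 lower with Filgotinib are small numbers of 7. The median log2 fold change of all genes was itself 0.21 with BGT226, 0.12 with Omipalisib, 0.11 with Lapatinib, 0.12 with Pimasertib and -0.04 with Filgotinib. Scaling by the median of ratios took away that shift (by 0.19 with BGT226) and turned none of the 14 directions.

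The Pycard transcript, which encodes the adaptor that Nlrp3 and Aim2 need to reach caspase-1, fell with BGT226 and Omipalisib, and these were the calls with the lowest adjusted p. DMSO samples had 1993, 2057 and 2049 in set 1 and 1837, 2047 and 2147 in set 2. With Omipalisib the values were 1234, 1380 and 1139, and with BGT226 they were 1376, 1514 and 1205. Every sample of both CKIs lay below every DMSO sample. The log2 fold change was -0.69 with Omipalisib (SE 0.10, adjusted p = 1.33e-08 in limma, 0.618-fold) and -0.57 with BGT226 (SE 0.10, adjusted p = 1.66e-06, 0.673-fold), and both calls held in all 11 alternative fits and without any 1 library.

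With the other 56 CKIs the mean of Pycard kept between 1915 and 2492. Among the other CKIs developed against PI3K or mTOR, not all of them listed here, means were 2313 ± 388 (Apitolisib), 1915 ± 188 (PF04691502) and 2276 ± 43.0 (AZD2014, SD, n = 3 each). Their concentrations differ from those of BGT226 and Omipalisib. Talmapimod, a p38 inhibitor, had the highest mean, with 2235, 2559 and 2682, a log2 fold change of 0.30 that did not pass the test (adjusted p = 0.368). All 3 samples lay above all 6 DMSO samples with 12 CKIs for Pycard, although none of these was called. Over all genes and CKIs 4.52% of pairs had all CKI samples above and 2.02% all below the DMSO samples, and over the 7 members 4.68% and 1.23%. Pycard means lay above the DMSO mean with 50 of 58 CKIs, a count that rests on the same 6 DMSO samples throughout.

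Among the sensors, Nlrp3 and Nlrc4 rose with BGT226. Nlrp3 had 899, 887 and 461 in DMSO set 1 and 1055, 679 and 712 in set 2, and 1690, 1599 and 1072 with BGT226. All BGT226 samples were above the DMSO samples, the lowest by a small margin, and the log2 fold change was 0.91 (SE 0.20, adjusted p = 0.000169 in limma, 1.88-fold). Within replicate numbers 1, 2 and 3 it was 0.79, 1.04 and 0.90. Omipalisib gave 1219, 1477 and 883, which overlaps DMSO, with a log2 fold change of 0.62 (SE 0.20, adjusted p = 0.0157). That call was lost without DMSO set 1 replicate 3 (adjusted p = 0.0824), Omipalisib replicate 1 (0.0705) or Omipalisib replicate 2 (0.176).

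At the other end Nlrp3 was lowest with Afatinib, an EGFR inhibitor, with 525, 525 and 607, and AZD2014, with 709, 418 and 542. Neither passed the test, with log2 fold changes of -0.46 and -0.48 and adjusted p = 0.0959 and 0.091. With the replicate number in the model both passed (adjusted p = 0.0412 and 0.0363 in limma). Even the lowest of 58 means, 552 with Afatinib, was within the range of the DMSO samples, which reached down to 461.

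Nlrc4, the sensor of the Naip axis, is a low gene here. DMSO values were 56, 55 and 29 in set 1 and 80, 29 and 53 in set 2, and BGT226 gave 170, 119 and 79. The lowest BGT226 sample overlapped the highest DMSO sample by 1, and the log2 fold change was 1.29 (SE 0.30, adjusted p = 0.00023 in limma, 2.45-fold). It held in all 11 alternative fits and without any 1 library. Volasertib, a PLK1 inhibitor, had the lowest mean, with 30, 16 and 35, a log2 fold change of -0.85 and adjusted p = 0.125. With the replicate number in the model this adjusted p was 0.0478 in limma.

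Aim2, the sensor of cytosolic DNA, was called with Omipalisib alone. Its DMSO values were 176, 218 and 115 in set 1 and 243, 151 and 147 in set 2, and Omipalisib gave 309, 340 and 335. All 3 were above DMSO, with a log2 fold change of 0.95 (SE 0.31, adjusted p = 0.0168, 1.93-fold). Without Omipalisib replicate 2 or replicate 3 the adjusted p was 0.0631 and 0.0533. BGT226 followed with 323, 239 and 253 and a log2 fold change of 0.66 that did not pass (adjusted p = 0.0967). The multikinase inhibitor Midostaurin had the lowest mean with 74, 96 and 105, every sample under the DMSO samples, but a log2 fold change of -0.90 with adjusted p = 0.0836. With the replicate number in the model this adjusted p was 0.0468 in limma.

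**Figure D2:**
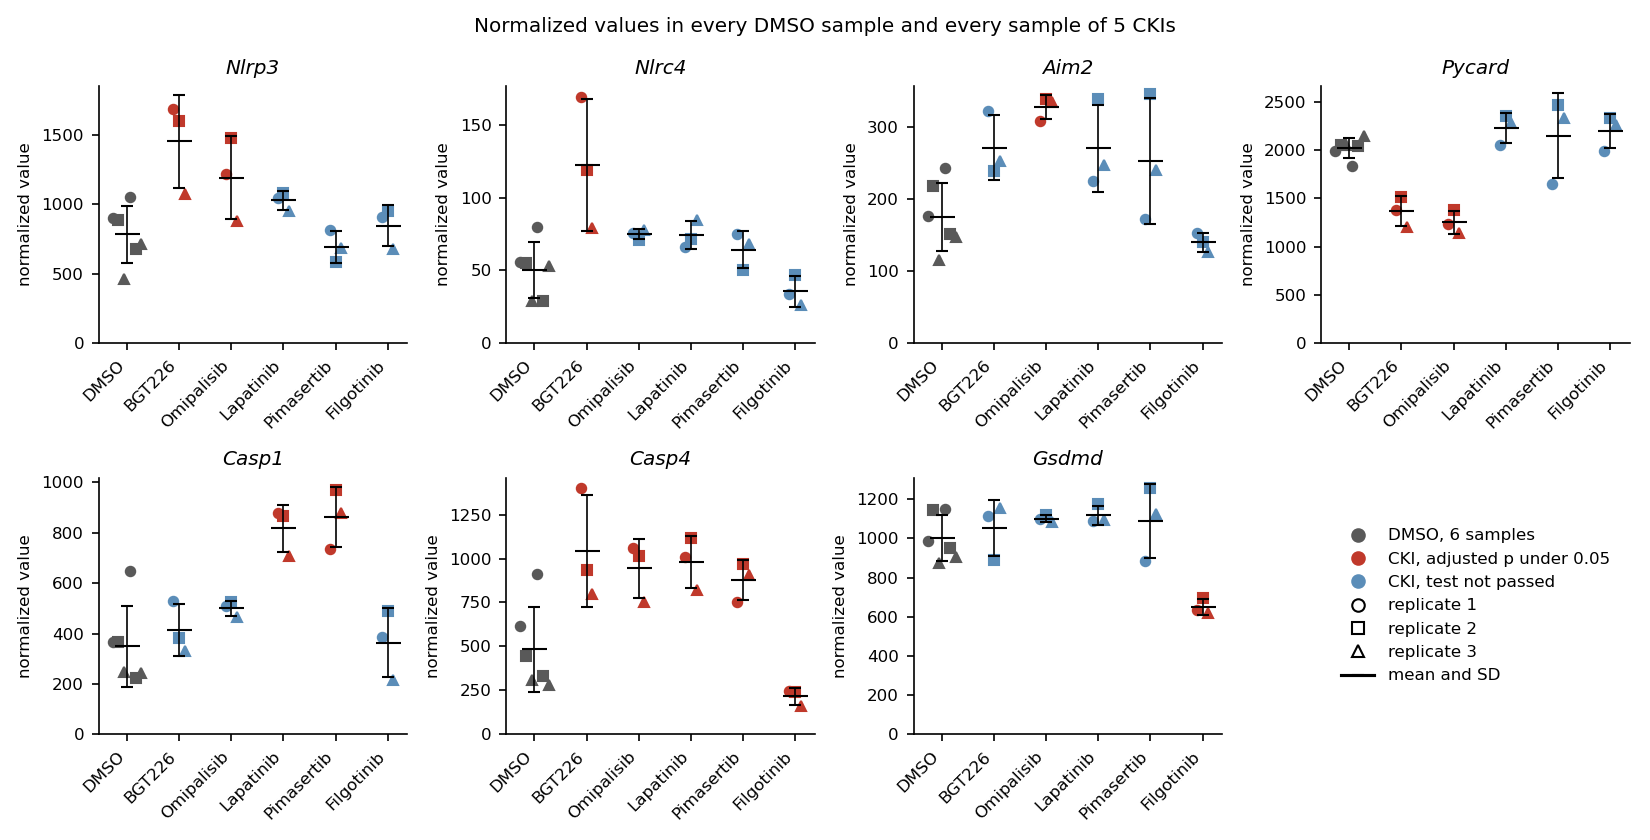
Normalized values of the 7 genes in the 6 DMSO samples and the 3 samples of each of 5 CKIs, with the mean and SD as bars and the replicate number as the symbol. Red CKIs passed the test. The 6 samples of BGT226 and Omipalisib for Pycard and the 3 Filgotinib samples for Gsdmd stand clear of DMSO, whereas for Casp4 the highest DMSO sample, at 910, reaches into the values of all 4 CKIs called higher.

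The inflammatory caspases had 7 of the 14 calls. Casp1 was called higher with Pimasertib, with 737, 971 and 879, and with Lapatinib, with 877, 866 and 709. All 6 of these samples lay above the 6 DMSO samples, whose highest was 649. The log2 fold change was 1.39 with Pimasertib (SE 0.42, adjusted p = 0.0146, 2.63-fold) and 1.32 with Lapatinib (SE 0.42, adjusted p = 0.0194, 2.50-fold). Without Pimasertib replicate 2 or 3 the first call had adjusted p = 0.0641 and 0.0694. The second had 0.06 without DMSO set 2 replicate 2, 0.0782 without Lapatinib replicate 1 and 0.0636 without Lapatinib replicate 2.

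The mitochondrial share was 3.66% ± 0.552 with Pimasertib and 2.76% ± 0.9 with Lapatinib (SD, n = 3 each), against 0.759% to 1.95% in DMSO. With the replicate number and this share in the model, the log2 fold change of Casp1 was 0.12 with Pimasertib (adjusted p = 0.904) and 0.50 with Lapatinib (adjusted p = 0.233). Casp4, described next, likewise had 0.16 with Pimasertib (adjusted p = 0.845) and 0.62 with Lapatinib (adjusted p = 0.0872) in that model. A covariate that differs between groups takes part of the group difference with it.

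Other CKIs developed against MEK or ERBB kinases gave these values at their own concentrations. Casp1 had means of 673 ± 127 with Refametinib and 572 ± 303 with Selumetinib, both MEK inhibitors, and adjusted p = 0.132 and 0.79. With the ERBB inhibitors Afatinib, AC480, Poziotinib and Neratinib its means were 462, 373, 332 and 321. With Mubritinib, which the study names as a HER2 inhibitor, the values were 464, 548 and 269. The lowest mean of all CKIs was that of NMS1286937, a PLK1 inhibitor, with 301, 175 and 237 and adjusted p = 0.913.

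Casp4, the cytosolic LPS receptor, was called with 5 CKIs, more than any other member. It rose with BGT226 (1399, 934 and 796), Lapatinib (1007, 1116 and 823), Omipalisib (1060, 1017 and 754) and Pimasertib (750, 971 and 907). Each of the 4 overlapped the DMSO sample at 910, and their log2 fold changes were 1.20, 1.14, 1.08 and 0.98 (SE 0.37 each), with adjusted p = 0.00721, 0.0195, 0.0205 and 0.0434. Against DMSO samples of the same number the difference with Pimasertib was -0.001 for replicate 1, 1.34 for replicate 2 and 1.61 for replicate 3. More CKIs developed against MEK, PI3K or mTOR, not all listed here, had these Casp4 values. Refametinib gave 963, 720 and 795, PF04691502 1215, 595 and 681, and Apitolisib 792, 683 and 760. Selumetinib gave 1115, 507 and 592, and AZD2014 846, 334 and 513. None of them was called without the replicate number in the model. With it Refametinib, PF04691502 and Apitolisib passed (adjusted p = 0.0359, 0.02 and 0.0341 in limma).

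The Casp4 calls with BGT226, Lapatinib, Omipalisib and Pimasertib were thin when single libraries were left out of the fit without the replicate number. Without BGT226 replicate 1 the adjusted p of Casp4 with BGT226 was 0.0925, and it stayed under 0.05 without each of the other 8 libraries. Lapatinib lost its call without Lapatinib replicate 1 (0.074), Lapatinib replicate 2 (0.0791) or DMSO set 2 replicate 2 (0.0579). Omipalisib lost it without Omipalisib replicate 1 (0.097), Omipalisib replicate 2 (0.0818), DMSO set 1 replicate 3 (0.0504) or DMSO set 2 replicate 3 (0.0549). Pimasertib kept it without DMSO set 1 replicate 1 or DMSO set 2 replicate 1 and lost it without each of the other 7 libraries, with an adjusted p of up to 0.133. With the replicate number in the limma model and all libraries kept, the adjusted p was 0.000226 with BGT226 and 0.00166 with Lapatinib. It was 0.00115 with Omipalisib and 0.00526 with Pimasertib. With the mitochondrial share added too, Lapatinib and Pimasertib did not pass, as given above. No library was left out of either model.

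Filgotinib, developed as a JAK1 inhibitor, lowered Casp4 and Gsdmd. Casp4 was at 244, 241 and 162, all under the lowest DMSO value of 283, with a log2 fold change of -1.05 (SE 0.37, adjusted p = 0.0302, 0.483-fold). The call was lost without any of the 3 Filgotinib samples (adjusted p from 0.0566 to 0.148), without DMSO set 1 replicate 1 (0.0587) and without DMSO set 2 replicate 1 (0.0855). Gsdmd had 988, 1143 and 877 in DMSO set 1 and 1149, 952 and 903 in set 2, and 634, 698 and 618 with Filgotinib. All 3 lay well below DMSO, with a log2 fold change of -0.62 (SE 0.12, adjusted p = 2.71e-05, 0.652-fold), and this call held in all 11 alternative fits and without any 1 library. Casp1, next to Casp4 on the chromosome, was at 387, 488 and 216 with Filgotinib, where DMSO samples ran from 222 to 649, with a log2 fold change of 0.08 (adjusted p = 0.914).

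Further inhibitors developed against JAK kinases, each at its own concentration, had Casp4 means of 749 ± 155 (Tofacitinib), 659 ± 261 (Pacritinib), 595 ± 67.4 (BMS911543), 482 ± 87.9 (Momelotinib) and 422 ± 50.5 (Ruxolitinib). None of them was called without the replicate number in the model. Their Gsdmd means lay between 884 ± 25.9 with Ruxolitinib and 1216 ± 68.5 with BMS911543. The highest Gsdmd mean belonged to Vatalanib, a VEGF receptor inhibitor, with 1239, 1257 and 1238. These samples were above all DMSO samples, with a log2 fold change of 0.32 and adjusted p = 0.371.

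Replicate numbers carried part of the variation. The log2 means of the 60 samples numbered 1, 2 and 3 were 9.53, 9.03 and 8.87 for Casp4 and 9.05, 8.58 and 8.51 for Casp1, whereas Pycard had 10.97, 11.15 and 11.09. Replicate numbers took up 24.4% of the log2 variation of Casp4, 14.1% of that of Casp1, 14.7% of that of Pycard, 11.2% of that of Nlrp3, 6.96% of that of Nlrc4, 5.29% of that of Aim2 and 1.2% of that of Gsdmd. Groups took up between 40.4% (Casp1) and 65.7% (Pycard). With 59 groups of few samples, part of that share arises without any effect of a CKI. It is therefore not directly comparable with the share of the 3 replicate numbers. Casp4 had its lowest sample in replicate 1 in 2 of 59 groups, and Pycard in 45 of 59.

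**Figure D3:**
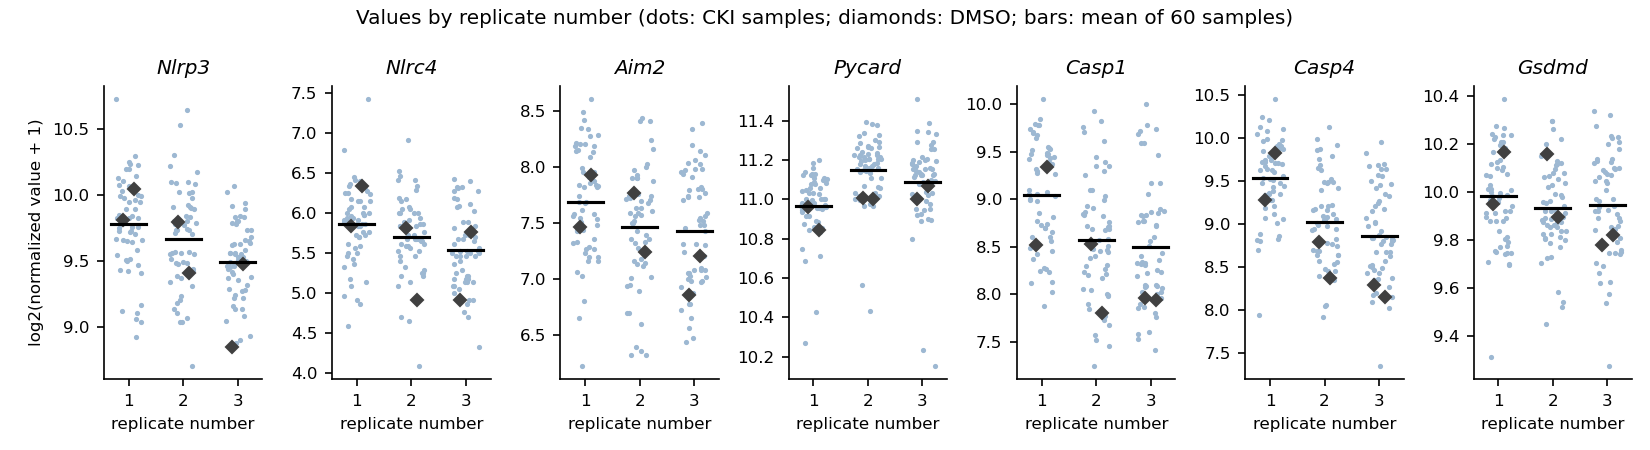
Log2(normalized value + 1) of the 7 genes by replicate number, with 1 dot for each CKI sample, diamonds for DMSO and a bar for the mean of 60 samples. The bar for Casp4 stands at 9.53 for number 1 against 9.03 and 8.87, and for Pycard it is lowest for number 1, at 10.97, while Gsdmd bars differ little.

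Across the 59 groups the levels of Aim2, Casp1 and Casp4 moved together. Pearson's r of the log2 group means, given as a description over groups that share DMSO, replicate numbers and scaling, was 0.798 between Casp1 and Casp4, 0.785 between Aim2 and Casp4 and 0.766 between Aim2 and Casp1, with Spearman's rho of 0.882, 0.845 and 0.805. Gsdmd had r = 0.658 with Casp4 and 0.401 with Casp1. Nlrp3 had r = 0.601 with Nlrc4 and 0.018 with Gsdmd. Pycard had negative r with the other 6 genes, from -0.441 with Nlrp3 to -0.015 with Gsdmd. Its rho with Nlrp3 was -0.104, so that the r rests largely on the few groups at the edge. Group means also carry single libraries that lay far apart. With SGI1776 Casp1 was at 713, 905 and 222, beside mitochondrial shares of 3.69%, 3.33% and 0.783%. With Pimasertib it was at 737, 971 and 879, beside 4.29%, 3.24% and 3.45%. The part of this share in these and the following r was not tested.

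**Figure D4:**
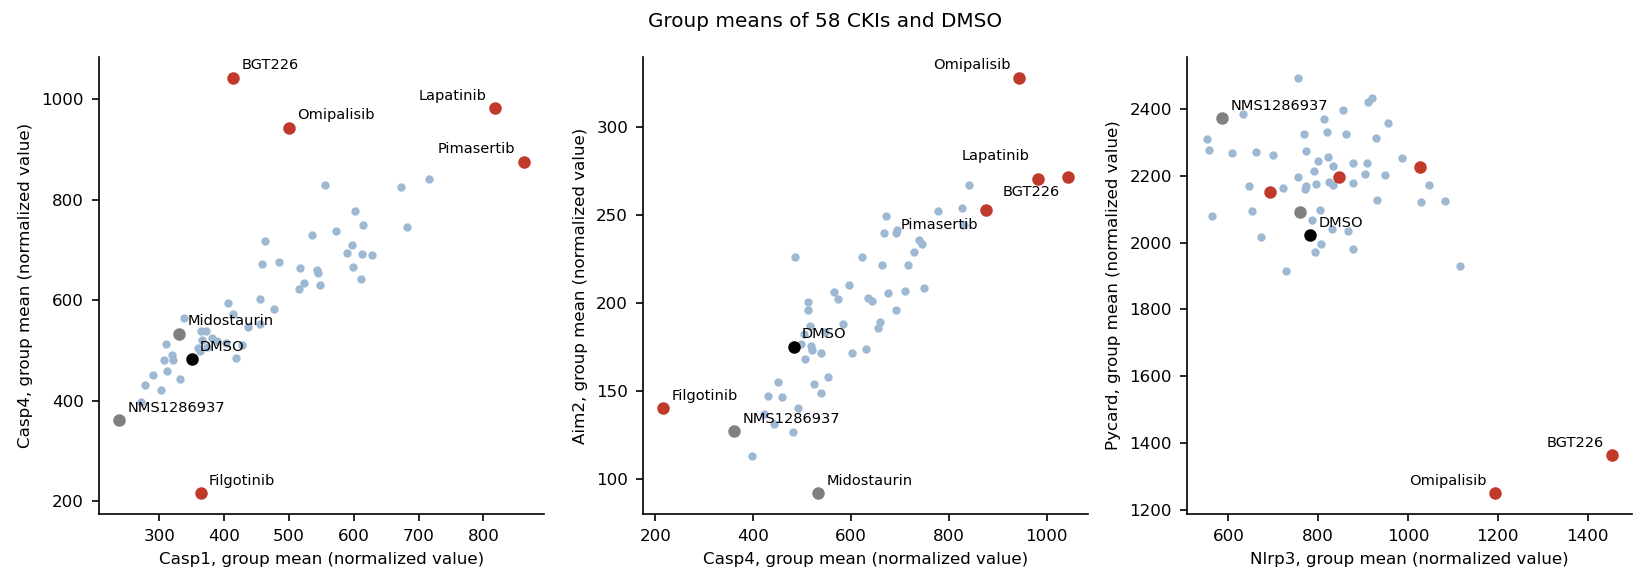
Group means in normalized values of 58 CKIs (blue, with the 5 CKIs of the calls in red and 2 others named in grey) and DMSO (black), for Casp4 against Casp1, Aim2 against Casp4 and Pycard against Nlrp3. BGT226, at 414 for Casp1 and 1043 for Casp4, and Filgotinib, at 364 and 216, leave the band on which most CKIs lie. Omipalisib, at 944 for Casp4, also stands above this band. BGT226 and Omipalisib stand alone in the corner of high Nlrp3 and low Pycard.

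The genes whose group means followed each member most closely, by Pearson's r over the 59 groups among the 12714 genes, differed between members. For Casp1 they were Ms4a6d (0.981), Lgals9 (0.966), Rtp4 (0.96), Milr1 (0.958) and Ms4a6c (0.957). Aim2 was followed by Sp140 (0.95), A530032D15Rik (0.938), 9930111J21Rik2 (0.932), Gbp3 (0.927) and Arhgef12 (0.924). Casp4 had A630001G21Rik (0.923), Xaf1 (0.903), Lilrb4a (0.897), Gm46589 (0.893) and Gm21188 (0.891). Among these, Rtp4, Gbp3 and Xaf1 are known as interferon-inducible genes.

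The remaining members had lower r with their closest genes. By Spearman's rho the order changed, with Ldha and D8Ertd738e ranking 32 and 45 for Pycard and Kmt2c and Nfat5 sharing rank 78.5 for Nlrp3. Gsdmd came with Cd40, the co-stimulatory receptor (0.826), Car13 (0.822), Apobec3 (0.818), Arl5c (0.815) and Batf2 (0.784). Pycard came with Lamtor1, a subunit of the lysosomal Ragulator complex (0.889), the proteasome subunit Psmb5 (0.872), the mitochondrial ribosomal protein Mrpl14 (0.866), Ldha (0.859) and D8Ertd738e (0.857). Nlrc4 was followed by Spag5 (0.808), Slco2b1 (0.806), Acox3 (0.799), Pnpla7 (0.788) and Chm (0.783). For Nlrp3 the closest were Cflar, the caspase-8 regulator c-FLIP (0.771), Kmt2c (0.766), Nfat5 (0.758), Hspa13 (0.757) and Aff4 (0.756).

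The wider pathway was read from a list of 44 symbols, none of them a member, of which 41 passed the filter. Nlrp6 and Nlrp12 did not, and the symbol Irgb10 was not matched, which does not exclude a row under another name. Over 58 CKIs 2.44% of 2378 pairs were called higher and 1.43% lower, again close to all genes. With BGT226 12 of 41 were higher and 2 lower (29.3% and 4.88%, median log2 fold change 0.34), and with Omipalisib 12 and 1 (29.3% and 2.44%, median 0.36). Lapatinib had 7 and 1 (17.1% and 2.44%, median 0.41), Pimasertib 4 and 2 (9.76% and 4.88%, median 0.34), and Filgotinib 0 and 9 (22.0% lower, median -0.29). Over all genes the shares called higher were 24.1% with BGT226, 17.5% with Omipalisib, 18.1% with Lapatinib and 16.0% with Pimasertib, so that the list was below all genes with Lapatinib and Pimasertib, and with Filgotinib 14.6% of all genes were lower. Only calls with these 5 CKIs are named below, and other CKIs had calls too. Txnip was higher with 7 CKIs and lower with 1, Mubritinib (log2 fold change -2.42, adjusted p = 2.87e-16 in limma). Gsdme was higher with 6 CKIs, Ripk3 higher with 5, and Tnfaip3 higher with 1 and lower with 7. The median over all genes was 2 CKIs.

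Sensors and their partners, 12 tested, were called higher in 5 cases and lower in none with BGT226, which called 24.1% of all genes higher. The largest fold was that of Nlrp1b, a sensor of protease activity, with a log2 fold change of 2.88 (SE 0.40, adjusted p = 1.33e-09) and values of 123, 142 and 95 against a DMSO mean of 17.0 ± 8.27 (SD, n = 6). Nek7, the kinase that Nlrp3 needs to assemble, rose by 0.66 with BGT226 (adjusted p = 9.6e-06) and by 0.49 with Omipalisib (adjusted p = 0.00173). Naip6, Naip5 and Naip2, the ligand-binding partners of Nlrc4, had log2 fold changes of 0.88, 0.72 and 0.51 with BGT226 (adjusted p = 0.00386, 0.0121 and 0.0204), and Naip2 0.52 with Omipalisib (adjusted p = 0.023). The Naip, Nlrp1, Gbp and Ifi200 families each hold close copies, so the split of reads between their genes is uncertain.

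With Filgotinib the DNA sensor family gene Ifi203 (885, 782 and 557, log2 fold change -1.22, adjusted p = 0.00354) and Nlrp10 (-0.86, adjusted p = 0.0235) were lower. Zbp1, a sensor of Z-form nucleic acids, rose with Lapatinib (0.99, adjusted p = 0.0252) and Omipalisib (0.94, adjusted p = 0.0281). Pimasertib raised Nlrp1b by 1.22 (adjusted p = 0.0219), and Lapatinib raised Ifi204 by 1.07 (adjusted p = 0.0371) and Mefv, the gene of pyrin, by 0.63 (adjusted p = 0.0447).

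Of the genes listed as cytokine substrates, Il1b and Il1a were called in opposite directions with BGT226 and Lapatinib, which both raised Casp4. With Omipalisib and Pimasertib, which also raised Casp4, no gene of this group was called. Il1b, the precursor of interleukin-1β, had a DMSO mean of 4048 ± 1442 (SD, n = 6). It was at 1994, 1128 and 1052 with BGT226 (log2 fold change -1.54, SE 0.41, adjusted p = 0.00178) and at 10957, 10205 and 8016 with Lapatinib (1.32, SE 0.41, adjusted p = 0.0165). Il1a fell by 1.09 with BGT226 (adjusted p = 0.0311) and rose by 1.31 with Lapatinib (adjusted p = 0.0159). Il18 was not called with any CKI.

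Of the channels and triggers, Txnip, which binds thioredoxin and has been linked to Nlrp3, rose with BGT226 (2186, 1704 and 1504, log2 fold change 1.75, adjusted p = 3.75e-11) and Omipalisib (1546, 1600 and 1056, 1.38, adjusted p = 1.79e-07), from a DMSO mean of 545 ± 142. P2rx7, the ATP-gated channel that triggers Nlrp3, rose with the same CKIs by 1.13 (adjusted p = 4.31e-06) and 0.62 (adjusted p = 0.0189). Panx1, a channel that releases ATP, had a log2 fold change of -0.91 with Omipalisib (adjusted p = 0.00133) and of -0.68 with Filgotinib (adjusted p = 0.0227).

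Among caspases and adaptors, Ripk3, the kinase of necroptosis, rose with Omipalisib, Pimasertib and Lapatinib, by 0.91, 0.90 and 0.86. Fadd rose with BGT226 by 0.93 (adjusted p = 8.1e-07), and Ripk1 rose with BGT226 by 0.79 and had -0.66 with Filgotinib. Of the genes of pore formation and rupture, Ninj1, which completes membrane rupture downstream of gasdermin D, was lower with Filgotinib (-0.42, adjusted p = 0.000863), Pimasertib (-0.40, adjusted p = 0.0039) and Lapatinib (-0.30, adjusted p = 0.0224). Mlkl, the effector of necroptosis, rose with Omipalisib (0.61) and was lower with Filgotinib (-0.56), and Gsdme rose with BGT226 (0.60).

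Of 13 regulators tested, 5 were called higher with Omipalisib, against 17.5% of all genes, and 3 lower with Filgotinib, against 14.6% of all genes. Il1rn, which encodes the antagonist of the interleukin-1 receptor, rose with Omipalisib (20349, 17060 and 14548, log2 fold change 1.69, adjusted p = 3.89e-05) and BGT226 (16399, 9646 and 10180, 1.14, adjusted p = 0.00534), from a DMSO mean of 5621 ± 2101. The guanylate-binding proteins Gbp2, Gbp3 and Gbp5, which expose bacterial LPS to caspase-11, rose with Omipalisib by 1.26, 1.17 and 1.04, while Gbp3 had -0.93 with Filgotinib (adjusted p = 0.038). Tnfaip3, which encodes the inhibitor A20, was lower with Filgotinib (-0.83, adjusted p = 0.000105) and Pimasertib (-0.55, adjusted p = 0.0179) and higher with Omipalisib (0.48, adjusted p = 0.0298). Brcc3, the deubiquitinase of Nlrp3, rose with Pimasertib (0.53) and Lapatinib (0.46), Card9 rose with Pimasertib (0.66) and was lower with Filgotinib (-0.68), and Cyld rose with BGT226 (0.40).

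**Figure D5:**
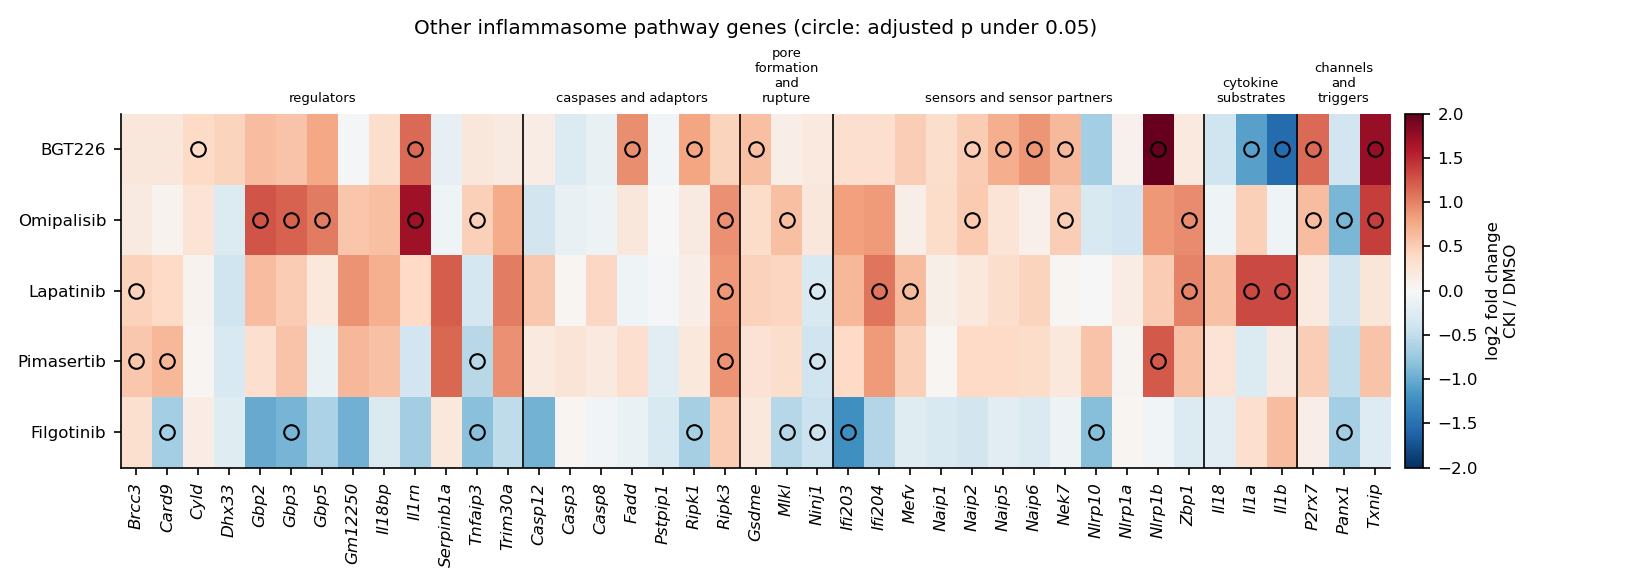
Log2 fold change of 41 further pathway genes (columns, by role) with the 5 CKIs of the member calls (rows), with circles at an adjusted p under 0.05. The Filgotinib row holds 9 circles, all on lower genes, and BGT226 and Omipalisib hold 12 circles each on higher genes, with Il1a and Il1b lower with BGT226 and higher with Lapatinib.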

How the data were processed

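The authors aligned reads of SMART-seq2 libraries to mm10 with TopHat2 2.1.1, keeping 1 alignment for each read, removed blacklisted regions with bedtools 2.29.2 and counted reads on exons of curated RefSeq genes. They scaled each sample on genes of little variation, and the deposited values, rounded to whole numbers, are treated as a score without fixed unit and called normalized values. The authors tested them with DESeq2 (R 3.6.2) without its normalization. Since they are not raw counts, limma 3.58.1 (R 4.3.3) was used on log2(value + 1) with a variance trend. The 59 groups shared 1 fit with a contrast of every CKI to DMSO (6 samples), and p-values were adjusted by Benjamini-Hochberg within each CKI over the 12714 of 45070 genes with a mean of at least 10. Data were simulated for 1 CKI against DMSO over 12714 genes. Of 200 genes changed by 1 on the log2 scale 113 were found, with 5 false calls. Of 200 changed by 2, 198 were found, with 7 false calls. Recovery at the DMSO spread of Casp1 and Casp4 (coefficient of variation 45.7% and 50.3%) was not tested. The table's gene length column served the values per kb. Totals of 9477340 to 12273349 are sums of scaled values and do not give the depth sequenced. Low genes such as Nlrc4 can carry a large counting error, which was not measured.

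Samples were grouped by their labels, and 0 columns lacked a sample. The methods speak of independent biological replicates. Named were all 7 members, with the values of up to 5 called CKIs in each direction and of the CKIs with the highest and lowest mean, and the 5 genes most like each member. For each of the 5 CKIs with member calls, up to 5 called pathway genes of each role were named, those with the lowest adjusted p. One pathway gene of the list as first written is not reported here. Members and lists were chosen with earlier results of these data known. Promoters were matched in RefSeq tables with Python 3.11.15. Alternatives changed the pseudocount, filter, scaling, reference set, variance model, block and threshold, and left out replicate numbers. Leaving out single libraries, in the fit without the replicate number, was added after seeing the data.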

Additional observations from a re-analysis of the deposited data

Results flagged for a closer look

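In the 6 DMSO samples, Casp1 in set 2 replicate 1 stood at 649, and the next highest sample, set 1 replicate 2, at 368. The gap took up 0.658 of the range of the group, above the 0.625 that Dixon's test allows for 6 samples. It was the only 1 of 7 genes with such a sample, and chance flags about 1 in 20 groups. The calls of Casp1 with Pimasertib and Lapatinib kept an adjusted p under 0.05 without this library. The same sample was the highest of the DMSO samples for Casp4, at 910, for Nlrp3, at 1055, for Nlrc4, at 80, for Aim2, at 243, and for Gsdmd, at 1149, and the lowest for Pycard, at 1837. It also had the highest total, 11094387, and the highest mitochondrial share, 1.95%, of the 6. Their part in its values was not tested.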

How the results depend on the processing

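No alternative turned the direction of any of the 14 calls, and 6 of them (Pycard with Omipalisib and BGT226, Gsdmd with Filgotinib, and Nlrp3, Nlrc4 and Casp4 with BGT226) were called in all 11 alternative fits. Counts of CKIs called were 2 for Nlrp3, 1 for Nlrc4, 1 for Aim2, 2 for Pycard, 2 for Casp1, 5 for Casp4 and 1 for Gsdmd, and those of pathway genes 58 higher and 34 lower. With DMSO set 1 alone Casp1 had 0, Casp4 1 and the pathway 31 higher and 20 lower. With set 2 alone Nlrp3 had 1, Aim2 0, Casp1 0, Casp4 1 and the pathway 26 higher. A fit of only the groups compared gave 1 for Nlrp3, 3 for Casp4 and 29 and 15 for the pathway. The fits with set 1 or set 2 alone kept all samples but compared each CKI with 3 DMSO samples. Only the fit of the groups compared held fewer samples. Median-of-ratios scaling gave 2 for Aim2 and 38 pathway genes higher, and no filter gave 3 for Casp4. A fold change minimum of 1 on the log2 scale left 0 for Nlrp3, Aim2, Pycard and Gsdmd and 19 and 9 for the pathway. Without 1 replicate number the counts ranged from 1 to 4 for Nlrp3, 1 to 3 for Nlrc4, 0 to 1 for Aim2, 2 to 3 for Pycard, 0 to 2 for Casp1, 0 to 6 for Casp4 (1 each time for Gsdmd), and from 18 to 66 higher and 11 to 42 lower for the pathway.

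The labels do not say that a replicate number marks a shared culture or day, and 30 of 174 correlations of a CKI sample with the same-numbered DMSO samples were not over 0.1 (-0.523 to 0.726), so the numbers were not taken as pairs. The other 144 were over it, and 126 of 174 samples correlated best with their own number. Same-numbered samples of the 2 DMSO sets correlated at 0.237 to 0.514. Both are a hint from the data and not the design. With a replicate block the members had 29 calls on 14 CKIs, the 14 and 15 more, among them pairs described above as not passing (Nlrp3 with AZD2014, adjusted p = 0.0363 in limma, and Afatinib, 0.0412, Aim2 with Midostaurin, 0.0468, Nlrc4 with Volasertib, 0.0478, and Casp4 with Tofacitinib, 0.0408). The counts were 6 for Nlrp3, 3 for Nlrc4, 2 for Aim2, 3 for Pycard, 4 for Casp1, 10 for Casp4 and 1 for Gsdmd, and the pathway had 96 and 59. With the block and the mitochondrial share there were 14 calls, 10 of them among the 14, with 4 for Nlrp3, 2 for Nlrc4, 2 for Aim2, 0 for Casp1, 3 for Casp4 and 56 pathway genes lower. The causes of these moves were not tested. Counting error, which was not measured, can limit low genes such as Nlrc4.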
